A study of Mus musculus with 6 samples.

Results

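The messenger RNAs of 8 genes for chloride transporters and chloride channels were followed in the dorsal root ganglia of mice, which hold the cell bodies of sensory neurons. They were taken by gene symbol from a table of 57180 genes, each symbol matched 1 row, and all 8 passed the filter on low counts that left 16346 genes for testing. The set holds the cation-chloride cotransporter genes Slc12a2, Slc12a4, Slc12a5 and Slc12a7, the anoctamin genes Ano1 and Ano3, and the CLC family genes Clcn3 and Clcn6.

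All 6 mice were wild type (WT). The sources used here give no strain, sex or age. All were anesthetized with Zoletil. In the 3 ischemia-reperfusion (I/R) mice the left renal pedicle was clamped for 28 min and released, and the right kidney was removed. The 3 sham mice had the surgery without the clamp, and the labels do not state separately whether they also lost the right kidney. Ganglia of thoracic level 8 to lumbar level 2 were collected after 24 h, giving 1 library per mouse. Whole ganglia were sequenced, so neurons that supply the kidney were not separated from other neurons or from glia.

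Chloride inside a neuron decides what an opened chloride channel does. In most adult central neurons, potassium-chloride cotransporters keep internal chloride low, so that GABA inhibits. Sensory neurons of the dorsal root ganglion instead hold chloride high through a sodium-potassium-chloride cotransporter, and an open chloride channel or GABA receptor then depolarizes them. CLC proteins inside the cell exchange chloride for protons in endosomes and lysosomes, and anoctamins are membrane proteins of which some are calcium-activated chloride channels and others move lipids.

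None of the 8 genes was called different between I/R and sham. Calls rest on an adjusted p under 0.05 in edgeR's quasi-likelihood test, with adjustment over all 16346 genes, and 1.15% of tested genes (188) met that rule. The adjusted p of the 8 genes ran from 0.363 for Slc12a5 to 0.970 for Slc12a7. Their log2 fold changes, I/R over sham, ran from -0.83 for Slc12a5 to 0.24 for Slc12a2, with a median of 0.02 beside 0.00013 over all tested genes. Of the 8, 4 lay above 0 (50% of tested genes did) and 4 below, and 7 differed by less than 1.2-fold. Before adjustment, a p under 0.05 was found for 2 of the 8 (Slc12a2 and Slc12a5), beside 10.5% of tested genes. DESeq2 and limma-voom called none of the 8 either, while calling 1.91% and 1.08% of tested genes.

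The libraries held 19092650 to 22010227 expected counts each. Levels between libraries are given as CPM, counts scaled to library sizes that TMM had adjusted, and 3 counts in a library corresponded to 0.137 to 0.154 CPM. Neuron markers were abundant, as the tissue label requires: the sum of 8 of them ran from 13998 to 14809 CPM among sham mice and from 12310 to 15862 CPM among I/R mice, and none was called. Sham 1 and sham 3 stood apart by skeletal muscle transcripts, with a sum over 10 markers of 422 and 225 CPM, against 20.6 CPM in sham 2 and 7.71 to 14.8 CPM among I/R mice. The 6 fibroblast and meningeal markers were all called lower in I/R, as 0.428% of tested genes were, and their sum ran from 667 to 809 CPM among sham mice and from 339 to 398 CPM among I/R mice. Of 5 satellite glia markers only Fabp7 was called, lower in I/R. Among those not called, Glul and Cdh19 had log2 fold changes of 0.32 and 0.35, and Kcnj10 and Apoe of -0.25 and -0.21. The sum of the 5 ran from 2793 to 3118 CPM among sham mice and from 2169 to 3101 CPM among I/R mice. In whole ganglia, fewer cells of a type and less RNA per cell cannot be told apart. The part of these markers in the results below was not tested.

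To compare genes with each other, levels were expressed per length, as TPM, with the gene length in the deposited table. The order of the 8 genes was the same in all 6 libraries. In sham mice Clcn6 stood first at 99.6 ± 9.93 TPM (SD, n = 3), and Clcn3 followed at 78.5 ± 4.13 TPM. Ano3 stood at 62.9 ± 4.23 TPM and Slc12a2 at 46.5 ± 2.91 TPM. These 4 genes formed an upper group, since the lowest of their 24 values, 43.3 TPM for Slc12a2 in sham 2, lay above every value of the other 4 genes. Slc12a4 stood at 26.5 ± 5.34 TPM, Slc12a7 at 19.9 ± 2.57 TPM and Ano1 at 9.92 ± 1.66 TPM. Slc12a5 came last at 1.501 ± 0.586 TPM.

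Some neighbours in this order were not separated when all 6 libraries were pooled. The ranges of Clcn6 (88.1 to 118 TPM) and Clcn3 (73.7 to 103 TPM) overlapped, as did those of Clcn3 and Ano3 (56.5 to 79.0 TPM), and of Ano3 and Slc12a2 (43.3 to 64.0 TPM). The ranges of Slc12a4 (20.4 to 30.2 TPM) and Slc12a7 (15.7 to 23.4 TPM) also overlapped. The steps from Slc12a2 to Slc12a4, from Slc12a7 to Ano1 and from Ano1 to Slc12a5 were clear, with all 6 values of the higher gene above all 6 of the lower.

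**Figure D1:**
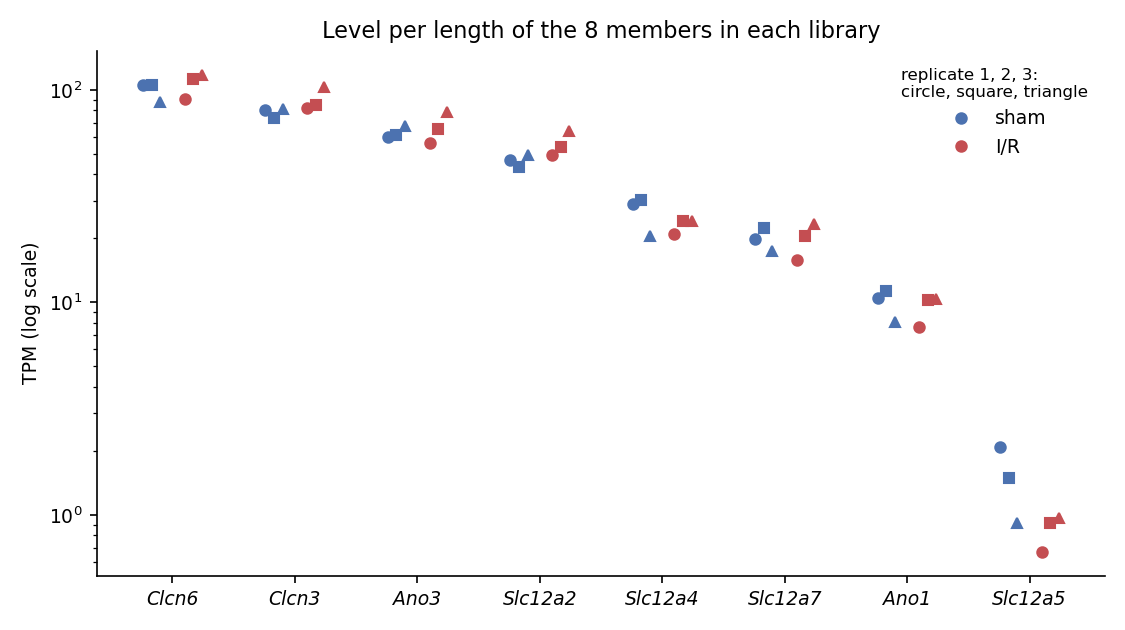
Level per length (TPM, log axis) of the 8 genes in each library, sham in blue and I/R in red, with 1 symbol per replicate. The 4 genes on the left lie between 43.3 and 118 TPM, and Slc12a5 on the right between 0.670 and 2.09 TPM.

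Slc12a2 encodes NKCC1, the cotransporter that brings chloride into sensory neurons together with sodium and potassium. Sham 1 to 3 had 119, 108 and 131 CPM of it, and I/R 1 to 3 had 133, 136 and 154 CPM. All 3 I/R values lay above all 3 sham values, but the gap between I/R 1 and sham 3 was small, and such a separation was found for 17.1% of tested genes in either direction and for 9.23% in this one. The sham mean was 119 ± 11.1 CPM and the I/R mean 141 ± 11.5 CPM (SD, n = 3 per group). The log2 fold change was 0.24 ± 0.10 (SE), an 18.4% higher level with a 95% interval of 0.719% to 39.2%, which did not pass the test (unadjusted p = 0.0423, adjusted p = 0.455 by edgeR).

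Slc12a5 encodes KCC2, which carries chloride out of mature central neurons together with potassium and is known to be scarce in sensory ganglia. Its reads were few, 59, 41 and 26 counts for sham 1 to 3 against 20, 26 and 28 counts for I/R 1 to 3. Scaled to library size, the sham values were 2.90, 2.05 and 1.34 CPM and the I/R values 0.988, 1.26 and 1.28 CPM. On that scale all I/R values lay below the sham values, as for 7.83% of tested genes, yet sham 3 and I/R 3 were nearly equal, and per length I/R 3 (0.967 TPM) stood above sham 3 (0.917 TPM). The log2 fold change was -0.83 ± 0.31, with a 95% interval of -1.52 to -0.14, and did not pass the test (unadjusted p = 0.0232, adjusted p = 0.363 by edgeR). With 1 library left out, the log2 fold change ran from -1.07 without sham 3 (adjusted p = 0.158) to -0.52 without sham 1 (adjusted p = 0.820).

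Markers of spinal cord oligodendrocytes also differed between the libraries. The 4 markers (Mobp, Mog, Opalin, Olig2) had sums of 21.0, 3.20 and 13.7 CPM for sham 1 to 3, against 1.73, 3.53 and 2.83 CPM for I/R 1 to 3. Mog, Opalin and Olig2 were at 0 in sham 2, and Opalin and Olig2 also in every I/R library. Mog was at 0 in I/R 2 and I/R 3 and had 1 count in I/R 1. Of the 4 only Mobp passed the filter on low counts, and it was not called (adjusted p = 0.121 by edgeR). Both the marker sum and Slc12a5 were highest in sham 1. Sham 3, with 13.7 CPM of the markers, had less Slc12a5 (1.34 CPM) than sham 2 (2.05 CPM), with 3.20 CPM. The part of spinal cord transcripts in the Slc12a5 values was not tested.

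The other potassium-chloride cotransporter genes of the set encode KCC1 (Slc12a4) and KCC4 (Slc12a7), both known for the regulation of cell volume. Slc12a4 measured 42.9, 44.2 and 31.7 CPM across sham 1 to 3, against 33.2, 35.6 and 33.9 CPM across I/R 1 to 3. The I/R values were close together and lay between sham 3 and the higher sham libraries, so the groups overlapped. On the log2 scale the difference was -0.21 ± 0.13 (adjusted p = 0.640), with a 95% interval of -29.3% to 5.81% on the linear scale. It was -0.35 without sham 3 and -0.12 without sham 2.

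Slc12a7 measured 39.5, 44.4 and 36.4 CPM across sham 1 to 3, against 33.4, 40.7 and 44.6 CPM across I/R 1 to 3. The ranges covered each other almost fully. Its log2 fold change was -0.02 ± 0.13 (adjusted p = 0.970), with a 95% interval of -18.96% to 20.2%.

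Set against each other within a library, the transcripts of chloride uptake exceeded those of KCC2 by a wide margin. The ratio of Slc12a2 to Slc12a5 in TPM was 22.5, 29.0 and 53.5 for sham 1 to 3, against 73.9, 59.1 and 66.2 for I/R 1 to 3. The I/R ratios were higher and closer together. They divide a gene by another, neither of which passed the test, and are given without a test.

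**Figure D2:**
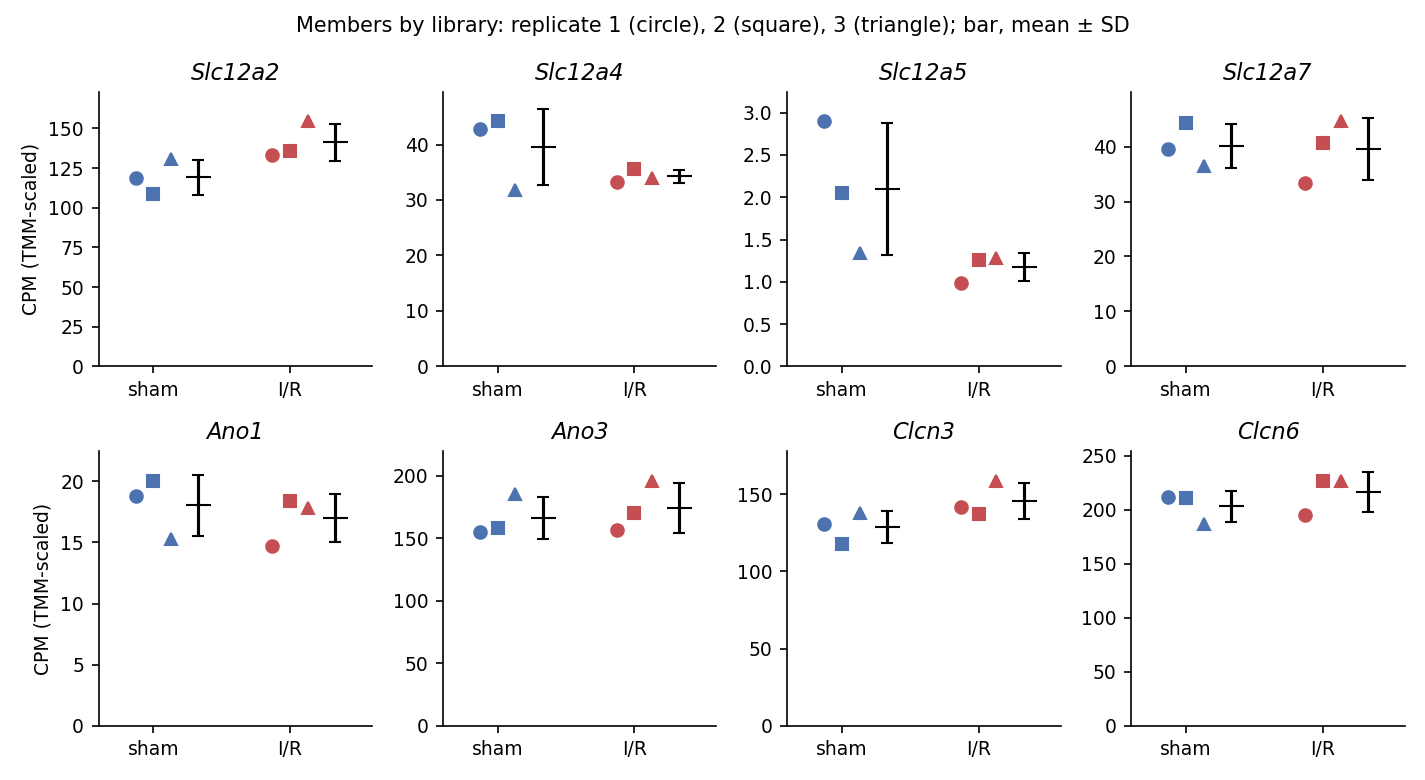
CPM with TMM-scaled library sizes of the 8 genes, 1 panel per gene with its own axis from 0; symbols are the 3 libraries of each group and the black bar is mean ± SD. Only for Slc12a2 and Slc12a5 do the groups not overlap, and for Slc12a5 the gap between sham 3 (1.34 CPM) and I/R 3 (1.28 CPM) is small.

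Ano1 encodes TMEM16A, a calcium-activated chloride channel that depolarizes heat-sensitive nociceptors and is also found in smooth muscle. Across sham 1 to 3 it measured 18.8, 20.1 and 15.3 CPM, against 14.7, 18.4 and 17.8 CPM across I/R 1 to 3. In each group 1 library, sham 3 and I/R 1, lay below the other two, and the groups overlapped. The difference was -0.09 ± 0.14 on the log2 scale (adjusted p = 0.868), with a 95% interval of -24.2% to 16.7%. The sum of 4 smooth muscle and pericyte markers ran from 168 to 191 CPM among sham mice and from 162 to 192 CPM among I/R mice, and none was called.

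Ano3 encodes TMEM16C, an anoctamin of nociceptors known to act on a sodium-activated potassium channel rather than as a chloride channel of its own. Ano3 measured 155, 158 and 185 CPM across sham 1 to 3, against 156, 170.1 and 196 CPM across I/R 1 to 3. The highest sham library lay above 2 of the 3 I/R libraries. Its log2 fold change was 0.07 ± 0.11 (adjusted p = 0.875), with a 95% interval of -12.03% to 25.03%. Per length, Ano3 stood 5.45 to 8.40 times above Ano1 in sham and 6.42 to 7.61 times in I/R.

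Clcn3 and Clcn6 encode exchangers of chloride and protons in the membranes of endosomes, and Clcn6 is known chiefly from late endosomes of neurons. The deposited table gives both the same pair of Pfam domains, Voltage_CLC and CBS. Clcn3 measured 130.5, 118 and 138 CPM across sham 1 to 3, against 141, 137 and 159 CPM across I/R 1 to 3. Only sham 3 and I/R 2 stood against a full separation, with 138 and 137 CPM. Its log2 fold change was 0.18 ± 0.10 (adjusted p = 0.594), with a 95% interval of -3.17% to 32.2%.

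Clcn6, the gene of the set with the most reads, measured 212, 211 and 187 CPM across sham 1 to 3, against 195, 227 and 227 CPM across I/R 1 to 3. The lowest values of both groups lay below all others, so the groups overlapped. The difference was 0.09 ± 0.10 on the log2 scale (adjusted p = 0.807), with a 95% interval of -8.65% to 24.3%. It was 0.035 without sham 3 and 0.16 without I/R 1. The ratio of Clcn6 to Clcn3 in TPM was 1.09 to 1.43 in sham and 1.11 to 1.33 in I/R.

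**Figure D3:**
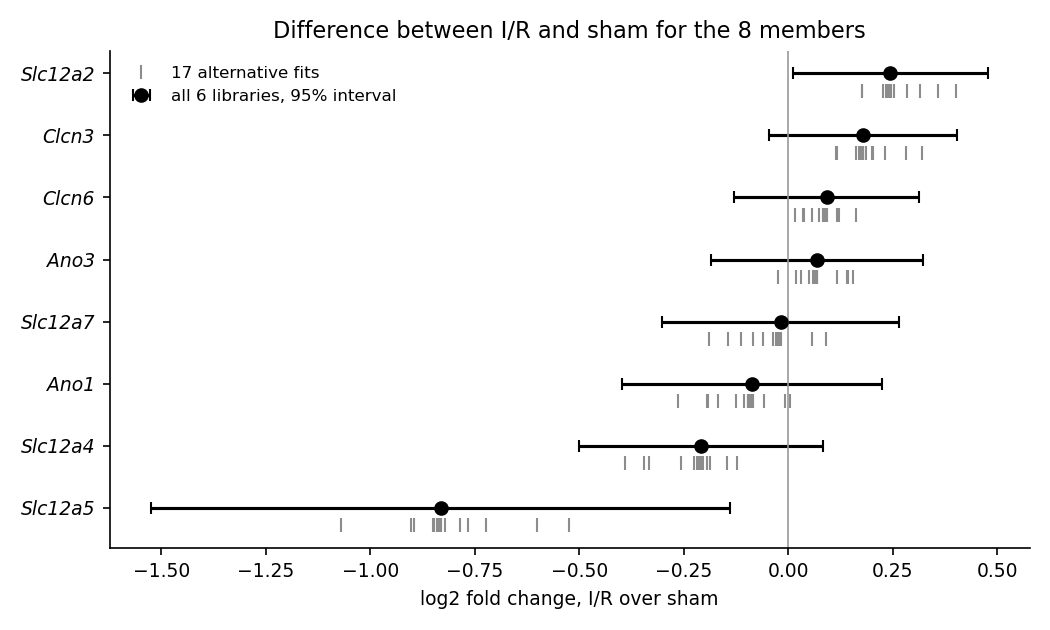
Log2 fold change, I/R over sham, of the 8 genes: black points and bars are the fit on all 6 libraries with its 95% interval, and grey ticks are the 17 alternative fits. Intervals of 6 genes include 0, and those of Slc12a2 (0.010 to 0.48) and Slc12a5 (-1.52 to -0.14), which are not adjusted for the number of genes tested, do not.

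Single libraries shaped the spread within a group for several genes at once. Sham 3 was the lowest sham library for 5 of the 8 genes (Slc12a4, Slc12a5, Slc12a7, Ano1 and Clcn6) and the highest for the other 3 (Slc12a2, Ano3 and Clcn3). I/R 1 was the lowest I/R library for 7 of the 8, all but Clcn3, and I/R 3 was the highest for 5. The coefficient of variation within sham ran from 6.92% for Clcn6 to 37.3% for Slc12a5, and within I/R from 3.62% for Slc12a4 to 14.3% for Slc12a7.

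The wider chloride machinery was taken from 6 lists with 55 genes, of which 47 passed the filter on low counts. One of these, Slc4a8, was called, and no gene of the lists was called lower. The median log2 fold change of the 47 was 0.09, 29 lay above 0 and 18 below, where 50% of all tested genes lay above 0. A p under 0.05 before adjustment was found for 7 of the 47, beside 10.5% of tested genes. Groups did not overlap for 11 of the 47, 8 higher and 3 lower in I/R, beside 17.1% of all tested genes.

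Slc4a8 encodes a sodium-driven exchanger of chloride and bicarbonate that moves chloride out of neurons while taking up bicarbonate. It rose, from 32.2, 31.96 and 29.4 CPM across sham 1 to 3 to 42.1, 43.2 and 52.3 CPM across I/R 1 to 3. The groups were well apart. The difference of 0.56 ± 0.11 on the log2 scale was a 1.47-fold change (edgeR's adjusted p = 0.0491), and 0.722% of tested genes were called higher. Leaving out any 1 of the 6 libraries lost the call (adjusted p 0.0504 to 0.164), as did limma-voom (0.0571), while the log2 fold change stayed between 0.45 and 0.62 over all 17 alternatives.

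Of the 12 anion exchangers and bicarbonate transporters, all tested, Slc4a8 was the only one called, 4 lay above 0 and 8 below. Slc4a1, the band 3 anion exchanger of red cells, measured 1.91, 3.25 and 2.37 CPM across sham 1 to 3, against 1.38, 0.920 and 0.913 CPM across I/R 1 to 3. Its log2 fold change was -1.23 ± 0.29 (adjusted p = 0.0965), and DESeq2 called it (adjusted p = 0.0491). The 4 globin genes, all called lower, had sums of 179 to 268 CPM among sham mice and of 51.97 to 85.3 CPM among I/R mice, and their part in the value of Slc4a1 was not tested.

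Kinases of the WNK pathway switch NKCC1 on and the potassium-chloride cotransporters off by phosphorylation. None of the 8 genes listed for that pathway was called. Of them 7 lay above 0, where 50% of all tested genes did, and their median log2 fold change was 0.13. Stk39, which encodes SPAK, the kinase that phosphorylates NKCC1 directly, measured 147, 140.2 and 149.7 CPM across sham 1 to 3, against 168, 169.7 and 189.8 CPM across I/R 1 to 3. All I/R values lay above the sham values, as for 9.23% of tested genes. The log2 fold change of 0.27 ± 0.09 did not pass the test (unadjusted p = 0.0137, adjusted p = 0.283 by edgeR). Wnk4, an upstream kinase, measured 5.35, 5.50 and 3.29 CPM across sham 1 to 3, against 7.91, 5.91 and 8.21 CPM across I/R 1 to 3, a log2 fold change of 0.64 ± 0.22 that also missed the threshold (adjusted p = 0.294). Wnk1, the WNK gene with the most reads, had a log2 fold change of 0.02 ± 0.10.

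The remaining cotransporter, CLC and anoctamin genes gave no calls. Of the other Slc12 genes, 4 of 5 were tested, and the smallest p belonged to Slc12a3, the thiazide-sensitive sodium-chloride cotransporter, at 0.37 ± 0.19 on the log2 scale (adjusted p = 0.560), and then to Slc12a8 at 0.22 ± 0.39. Without I/R 3 the value of Slc12a3 was 0.18. Of 9 other CLC family genes 6 were tested. Clcn2, a plasma membrane chloride channel, lay 0.20 ± 0.10 higher on the log2 scale (adjusted p = 0.516). Clcn1, the chloride channel of skeletal muscle, measured 1.72, 0.950 and 0.874 CPM across sham 1 to 3, against 0.988, 0.726 and 0.730 CPM across I/R 1 to 3. It was highest in sham 1, the library with the most muscle transcript (422 CPM over the muscle markers). Sham 3, with 225 CPM of those markers, had less Clcn1 than sham 2, with 20.6 CPM. The part of muscle transcripts in the Clcn1 values was not tested.

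Among 8 other anoctamins, 6 were tested. Ano7 measured 0.344, 0.200 and 0.411 CPM across sham 1 to 3, against 0.890, 0.872 and 1.32 CPM across I/R 1 to 3. The groups were apart at a low level, and the log2 fold change of 1.68 ± 0.39 did not pass the test (adjusted p = 0.0877). Without the filter on low counts, edgeR called it (adjusted p = 0.0300). Ano5, an anoctamin of muscle, measured 0.933, 0.900 and 1.65 CPM across sham 1 to 3, against 0.494, 0.581 and 0.776 CPM across I/R 1 to 3, and did not pass the test (log2 difference -0.89 ± 0.36, adjusted p = 0.405, and -0.56 without sham 3). The muscle markers summed to 422, 20.6 and 225 CPM across sham 1 to 3 and to 7.71 to 14.8 CPM among I/R mice. Ano5 was highest in sham 3, while sham 1 had the most muscle transcript. The part of muscle transcripts in the Ano5 values was not tested.

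Other chloride channels include the LRRC8 subunits of the volume-regulated anion channel, the bestrophins and the tweety homologs. Of 13 listed 11 were tested. No test of the 3 (edgeR, DESeq2 and limma-voom) called any of them, and by edgeR 0 had a p under 0.05 before adjustment. Lrrc8b measured 107, 108 and 97.6 CPM across sham 1 to 3, against 102, 125 and 149 CPM across I/R 1 to 3 (adjusted p = 0.530). Best1, a calcium-activated chloride channel gene known from sensory ganglia after nerve injury, measured 1.67, 1.35 and 1.13 CPM across sham 1 to 3, against 0.692, 1.16 and 0.913 CPM across I/R 1 to 3, a log2 fold change of -0.58 ± 0.30 (adjusted p = 0.549).

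**Figure D4:**
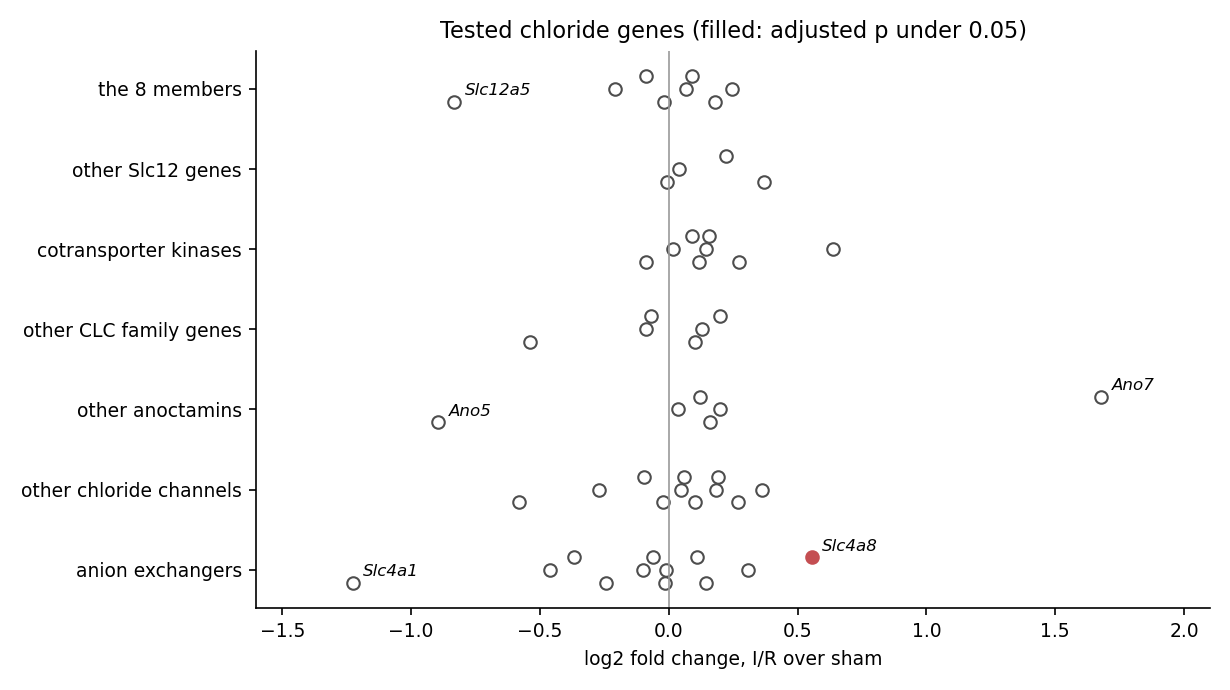
Log2 fold change, I/R over sham, of the 8 genes and of the 47 tested genes of the 6 other lists, 1 row per list; a filled point passed the test at an adjusted p under 0.05. Slc4a8 at 0.56 is the filled point, and the values farthest from 0 are Ano7 at 1.68 and Slc4a1 at -1.23.

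With no member called, the genes most like the 2 members of smallest p were sought among 13511 tested genes whose mean reached 1 CPM, as the smallest root mean square difference between 6 centred log2 CPM values. For Slc12a2 these were Dach1 (0.0228), Sgpp1 (0.0236) and Wwp1 (0.0240), with log2 fold changes of 0.25, 0.24 and 0.25. For Slc12a5 they included Adamts17 (0.169) and Cand2 (0.184), with log2 fold changes of -0.70 and -0.50. None of these 5 genes was called, and with so many genes compared over 6 libraries a close match is a description only.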

How the data were processed

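Stranded Illumina mRNA libraries were made from TRIzol-extracted RNA, per the labels' protocols. Of tools and builds, fastp, HISAT2, StringTie and GRCm39 stand in the submitters' processing notes, without role or order. The sources used here name neither the counting program nor its strand setting. For each gene and library, an unscaled expected count was deposited (10.7% to 11.5% of values not whole), and it was rounded. Their 2 columns of group means were not used; the deposited gene length (another column, in bases) entered TPM only.

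Genes were tested with edgeR 4.0.16 in R 4.3.3 (TMM, filterByExpr, quasi-likelihood test, Benjamini-Hochberg over all genes tested), and the test was checked on simulated data. Alternatives used DESeq2 1.42.0, limma-voom (limma 3.58.1), RLE or upper-quartile normalization, robust dispersion, unrounded values and the settings named in the closing section. Each library is 1 mouse per the labels (n = 3 per group), and no pair within a group agreed within sampling noise (chi-square per degree of freedom 4.26 to 30.5), so none was counted as a duplicate. All 8 members are named, with each called gene and up to 2 of smallest p per list. Members, lists and alternatives were chosen with earlier results of these data known. Wnk1 was named outside this rule after its values were seen, and 1 gene that the rule takes is not reported here. No coordinates are given, because the reference at hand was of another build.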

Additional observations from a re-analysis of the deposited data

How the results depend on the processing

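No member was called under any of 17 alternatives, and 132 of 136 member values kept their direction. With 1 library left out, Slc12a7 ran from -0.11 to 0.089 on the log2 scale (above 0 without sham 2, at 0.057, or without I/R 1), Ano1 from -0.19 to 0.0042 (above 0 without I/R 1), Ano3 from -0.024 (without I/R 3) to 0.15, and Slc12a8, outside the set, from -0.092 (without sham 2) to 0.54. The causes were not tested. No setting moved the median of all genes by over 0.0193. Among other chloride genes, 1 was called; 3 were without the filter on low counts (Slc4a8, Slc4a1 and Ano7), 2 in DESeq2, and 0 to 0 when 1 library was left out. The number was 0 with a CPM of at least 1 in 3 libraries, in limma-voom, with skeletal muscle level as covariate, and with sham 2 alone against I/R, where the lone sham library is assumed to vary like the I/R group. The count of 188 called genes became 494 without the filter, 312 in DESeq2, 20 with the muscle covariate, 32 with sham 2 alone, and 87 to 181 with 1 library left out (93 without sham 1, 87 without I/R 2, 98 without I/R 3). Muscle marker sums were 20.6 to 422 CPM among sham and 7.71 to 14.8 CPM among I/R libraries, without overlap. The muscle covariate therefore went along with group, and its fit cannot tell them apart. For Slc4a8 that fit gave a log2 fold change of 0.54 ± 0.21, against 0.56 ± 0.11 without the covariate. The part of muscle transcripts in the lost calls was not tested. With the replicate block, 63 genes were called, and 0 other chloride genes. Deviations of same-numbered libraries correlated with r of -0.11, 0.14 and -0.12, and 2 of 6 libraries correlated best with their own number. With 3 libraries a group, these values do not settle whether the numbers pair the mice. RPKM in place of TPM changed the scale and left the order of the 8 genes by group mean as it was. Within a library the order cannot change, because both measures divide the counts by the same gene length. By Pearson correlation, 0 of the 3 genes most like Slc12a2 and 1 of those most like Slc12a5 were shared. With 3 mice a group, the intervals of the 6 members that include 0 reach a log2 fold change of -0.50 (Slc12a4) on the lower side and 0.40 (Clcn3) on the upper. With 1 library left out, Slc12a2 ran from 0.18 to 0.31 and Clcn3 from 0.11 (without I/R 3; 0.12 without sham 2) to 0.23.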
